A study of Homo sapiens with 9 samples.

Results

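The genes described here encode the SR proteins, the hnRNPs and the subunits of the SF3A and SF3B complexes, which select splice sites in messenger RNA precursors. They were taken by name from the table of read counts of THP-1 cells: symbols made of SRSF, HNRNP, SF3A or SF3B and a number or letter code, without SRSF3, HNRNPA1 and HNRNPA2B1, without names of pseudogene copies, and with the first row of each symbol. This gave 39 of the 30000 rows, namely 11 SR protein genes, 19 hnRNP genes and 9 SF3 genes. All 39 had enough counts to be tested.

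THP-1 is a human monocytic leukaemia line. The 9 libraries formed 3 groups of 3. Control cells are labelled Ctrl, and their labels name no ectosomes. The other groups received ectosomes, which are vesicles shed from the plasma membrane, from Huh7 hepatoma cells that carried either a scramble shRNA (Scramble_Ecto) or an shRNA against PKM2 (PKM2_KD_Ecto). The shRNA was in the donor cells, so PKM transcripts of THP-1 cells do not check the knockdown. Their level was 650.3 ± 195 CPM (SD, n = 3) in controls, 3500.3 ± 108 CPM after scramble ectosomes and 2313 ± 137 CPM after PKM2-knockdown ectosomes. The sources used here do not give the ectosome dose, the time of exposure or the number of shRNAs. Replicates are numbered with no word on whether they were separate cultures, so the p-values measure only how these libraries spread, which may be technical.

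SR proteins carry RNA recognition motifs and a tail rich in arginine and serine. They bind enhancer sequences in exons and help recruit the U1 and U2 particles, and kinases of the SRPK and CLK families phosphorylate the tail and so control their location and activity. The hnRNPs coat nascent transcripts, and many of them oppose exon inclusion by binding silencer sequences. SF3A and SF3B are parts of the U2 particle, which pairs with the branch site upstream of the 3′ splice site. Many SR protein and hnRNP genes hold a poison exon, whose inclusion creates an early stop codon and sends the transcript to nonsense-mediated decay, so that a protein can limit its own transcript.

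Libraries held 17744587 to 23864381 counts. Levels below are in CPM, read counts relative to library size, after scaling by the trimmed mean of M values (TMM), and differences are log2 fold changes from edgeR's quasi-likelihood test, called at an adjusted p under 0.05 over the 18437 rows tested. The splicing factors took 1.11, 1.14 and 1.43% of all counts in the control libraries, 0.877, 0.870 and 0.883% with scramble ectosomes and 0.910, 0.887 and 0.887% with PKM2-knockdown ectosomes. All control libraries were above all treated ones in this share. These are bulk libraries, in which fewer cells with a transcript and less of it per cell cannot be told apart.

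Control replicate 3 stood apart. A chi-square test of its counts gave 49.6 and 46.0 per degree of freedom against the other controls, while all other pairs within a group lay between 2.60 and 7.29. Among the splicing factors, its log2(CPM + 0.5) was a median of 0.34 above the mean of control replicates 1 and 2 (range -0.21 to 1.12), against -0.01 over all rows tested. As a ratio of CPM it was at least 1.5-fold higher for 7 of them and at least 1.5-fold lower for 0. Of the 18437 rows tested, 1642 were at least 1.5-fold higher in this library and 3943 at least 1.5-fold lower. The 7 were HNRNPH1 (2.16-fold), HNRNPDL (2.11-fold), SRSF2 (2.07-fold), SRSF5 (1.62-fold), SRSF1 (1.61-fold), HNRNPH3 (1.53-fold) and SRSF7 (just at the 1.5-fold limit). Counts of splicing factors that rose or fell are therefore given with and without this library.

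The cells were checked against markers. All 10 markers of monocytic THP-1 cells were in the table, and their summed level was 740 to 933 CPM in controls, 685 to 747 CPM after scramble ectosomes and 1173 to 1355 CPM after PKM2-knockdown ectosomes. The surface protein CD33 was at 58.6, 43.0 and 61.7 CPM in these groups and the transcription factor SPI1 at 252, 494 and 561 CPM, whereas MPO (4.18, 0.446 and 0.548 CPM) and CD68 (0.314, 0.466 and 0.630 CPM) were low. The sums hide changes in both directions. Of the 10 markers 2 rose and 6 fell with scramble ectosomes against control, against 34.6% and 33.2% of all rows tested. With knockdown against scramble ectosomes 7 rose and 0 fell, against 31.4% and 30.3%. With knockdown ectosomes against control 4 rose and 4 fell, against 27% and 26.7%. Of 16 hepatocyte markers 8 were in the table, summing to 3.37 to 8.18, 6.47 to 7.48 and 41.3 to 48.0 CPM. Most of the last range was SERPINA1 (37.4 CPM), with ALB at 0.448 CPM. T-cell markers (3 of 6) summed to 64.5 to 98.8, 39.1 to 44.9 and 99.7 to 108.7 CPM, mostly CD4, with CD3E at 0, 0.0777 and 0.0164 CPM. B-cell markers (4 of 5) summed to 15.6 to 23.6, 14.4 to 15.7 and 22.9 to 24.5 CPM, and epithelial markers (5 of 5) to 0.160 to 0.662, 0.181 to 0.575 and 1.94 to 2.65 CPM. The part of these shifts in the results below was not tested.

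Levels between genes were compared per length, as RPKM, which is CPM divided by exon length in kilobases, with lengths of GENCODE release 29. These lengths count every base in an exon of any annotated transcript, retained-intron transcripts included, and the order below depends on them. HNRNPU had the highest mean CPM in controls, 1625 against 803 for HNRNPK. With a length of 22512 bases it took rank 10 in RPKM. In control cells HNRNPK, which binds runs of cytosine, had the highest mean at 157 ± 14.6 RPKM (SD, n = 3). It was followed by HNRNPH1, a binder of runs of guanine, at 126 ± 61.2 RPKM, and by HNRNPAB at 116 ± 22.3 RPKM. Neighbours in this order did not differ beyond their spread. HNRNPK remained the highest with scramble ectosomes (183 ± 3.17 RPKM) and with PKM2-knockdown ectosomes (146 ± 2.07 RPKM). The highest SF3 gene was SF3B5, a small subunit of SF3B, at 94.5 ± 16.7 RPKM in controls. The highest SR genes were SRSF2 at 63.7 ± 29.0 RPKM and SRSF5 at 61.1 ± 18.1 RPKM, which did not differ beyond their spread. At the other end stood SRSF12 at 0.155 ± 0.0634 RPKM, HNRNPA1L2, an intronless relative of HNRNPA1, at 4.40 ± 0.940 RPKM, and HNRNPLL at 4.62 ± 0.530 RPKM. The last 2 of these did not differ beyond their spread.

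**Figure D1:**
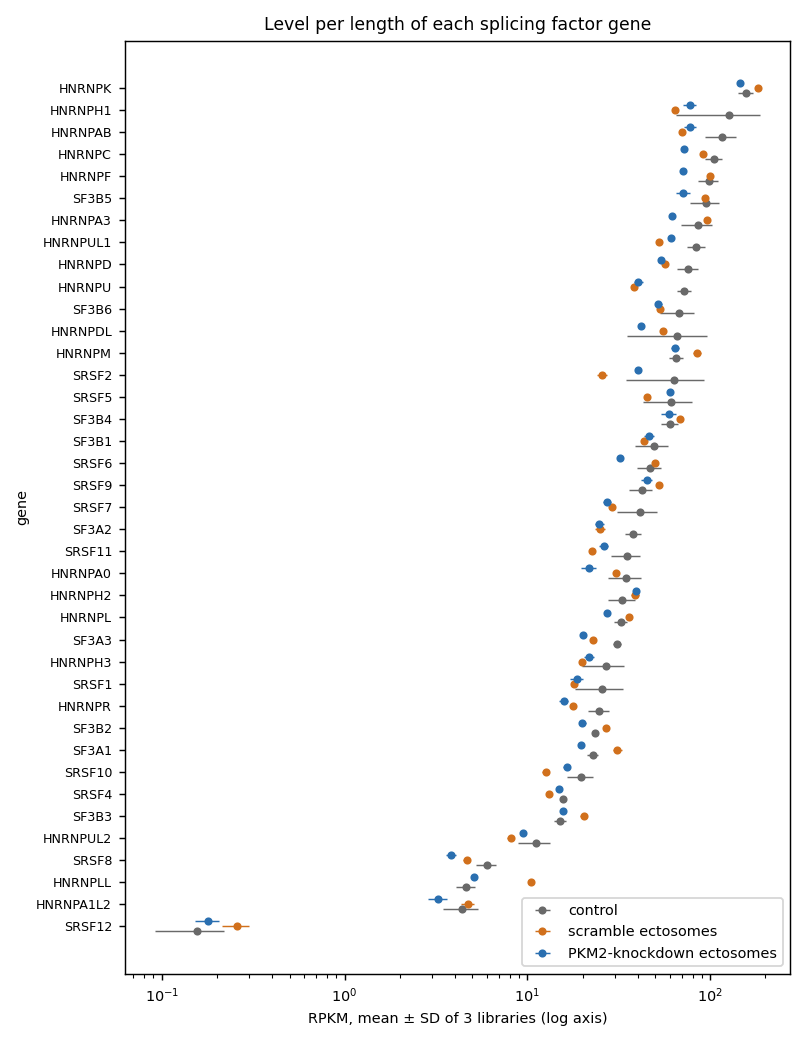
Level per length (RPKM, log axis) of each of the 39 splicing factor genes in the 3 groups, as mean ± SD of 3 libraries. The genes run from SRSF12 at 0.155 ± 0.0634 RPKM to HNRNPK at 157 ± 14.6 RPKM in control cells, and the widest control bars belong to genes that were high in control replicate 3, such as HNRNPH1.

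Sequence before the RefSeq start of 4 genes described below is shown because these genes moved with scramble ectosomes in opposite directions: HNRNPLL and SF3A1 rose, HNRNPU and HNRNPUL1 fell. The letters are from RefSeq (GRCh38.p14), from the 250 bases before the annotated start, and were limited to the longest stretch outside every GENCODE exon of the gene. They lie at chr2:38603037-38603167 (minus strand), chr22:30356948-30357144 (minus), chr1:244864561-244864793 (minus) and chr19:41262307-41262495 (plus). Capitals mark matches on either strand to the GC box GGGCGG, the CCAAT box and the ETS motif CCGGAAG. The HNRNPLL stretch lies between exons inside the gene as GENCODE gives it, since GENCODE also lists a start further upstream, and the other stretches lie outside the GENCODE genes. A match describes letters, not a bound site.
HNRNPLL: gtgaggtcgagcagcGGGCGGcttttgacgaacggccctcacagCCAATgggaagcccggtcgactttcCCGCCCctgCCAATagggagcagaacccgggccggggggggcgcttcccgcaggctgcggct
SF3A1: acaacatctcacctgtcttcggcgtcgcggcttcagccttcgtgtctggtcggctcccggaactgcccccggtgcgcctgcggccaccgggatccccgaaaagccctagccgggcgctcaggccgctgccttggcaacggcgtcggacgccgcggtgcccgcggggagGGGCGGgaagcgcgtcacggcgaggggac
HNRNPU: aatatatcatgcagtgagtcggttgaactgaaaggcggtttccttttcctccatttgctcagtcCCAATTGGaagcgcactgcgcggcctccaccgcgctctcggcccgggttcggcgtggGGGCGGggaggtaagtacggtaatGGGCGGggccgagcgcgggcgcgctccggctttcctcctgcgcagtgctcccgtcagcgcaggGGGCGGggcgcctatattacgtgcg
HNRNPUL1: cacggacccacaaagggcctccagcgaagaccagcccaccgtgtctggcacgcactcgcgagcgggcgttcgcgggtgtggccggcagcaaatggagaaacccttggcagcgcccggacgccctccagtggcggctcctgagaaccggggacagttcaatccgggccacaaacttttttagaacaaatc
The HNRNPLL stretch held 2 CCAAT boxes and 2 GC boxes, and the SF3A1 stretch 1 GC box. The HNRNPU stretch held 3 GC boxes and 2 CCAAT matches on opposite strands that overlap each other. The HNRNPUL1 stretch held 0 matches to these motifs, although this gene has a GC box elsewhere in the 250 bases. None of the 4 stretches held the ETS motif, which HNRNPLL and SF3A1 have elsewhere in the 250 bases.

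The first comparison set cells with scramble ectosomes against control cells and asks which THP-1 transcripts differ after hepatoma ectosomes. Here 7 splicing factor genes rose, 19 fell and 13 did not pass the test. SR protein genes were mostly lower (8 fell, 1 rose), hnRNP genes were mixed (8 fell, 3 rose) and SF3 genes were split evenly (3 fell, 3 rose). Without control replicate 3, 8 SR genes fell and 3 rose, 8 hnRNP genes fell and 8 rose, and 3 SF3 genes fell and 4 rose. With all libraries the largest rise was that of HNRNPLL, 2.26-fold, and the largest fall that of SRSF2, 2.48-fold. No other gene among the 39 changed by 2-fold or more with a call.

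The share called, 66.7% of the 39 genes, was close to the 67.8% of all rows tested that were called in this comparison. Of all rows tested 34.6% were called higher and 33.2% lower, and of the rows with a mean of at least 50 CPM 47.5% and 29.3% (76.8% in all). A change of at least 2-fold with a call was found in 2 of the 39 genes, against 36.6% of all rows tested and 26% of those with a mean of at least 50 CPM. Groups did not overlap for 29 of the 39 genes (9 higher, 20 lower), which is 74.4%. This compares with 71.3% of all rows and 80% of those with a mean of at least 50 CPM. The median log2 fold change of the 39 genes was -0.24, against -0.01 over all rows and 0.19 over rows with a mean of at least 50 CPM. The median of its absolute value was 0.43, against 0.74 and 0.55.

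Without control replicate 3, 15 splicing factor genes rose and 19 fell, against 36.9% and 34.7% of all rows in that fit. The median log2 fold change of the splicing factors was then -0.10. HNRNPDL, an hnRNP D-like protein gene that was not called with all libraries (log2 fold change -0.24, adjusted p = 0.381), rose without that library by 0.21 (adjusted p = 0.00486, 0.00486 to 0.585 over all alternatives run). With scaling to library totals alone, 3 rose and 22 fell, against 27.8% and 41.4% of all rows, and the median over all rows shifted by -0.20. Leaving out control replicate 2 or scramble replicate 3 left 4 that rose.

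**Figure D2:**
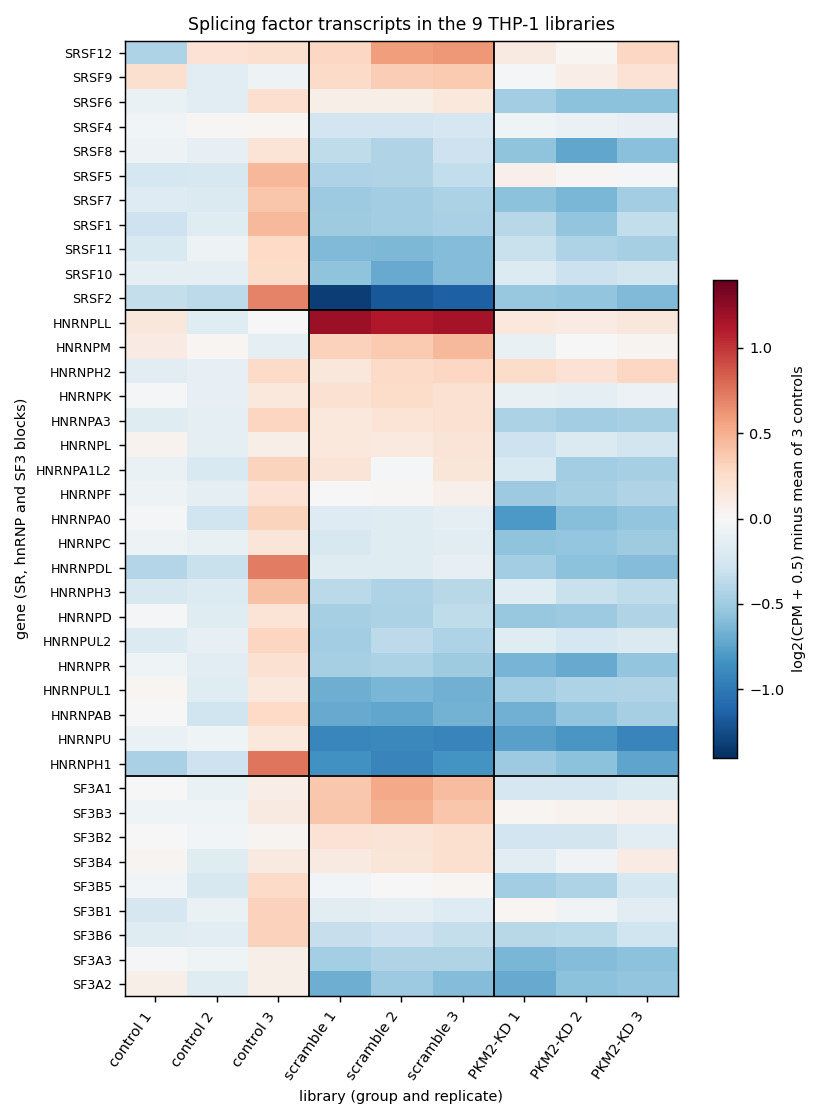
Heat map of log2(CPM + 0.5) minus the mean of the 3 control libraries, for the 39 splicing factor genes (rows, in SR, hnRNP and SF3 blocks) in the 9 libraries (columns). Red is above and blue below the control mean; the SR block is mostly blue in the scramble columns, HNRNPLL is the reddest hnRNP row there, and control replicate 3 is redder than the other controls.

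Among SR protein genes, SRSF2 encodes a core SR protein of nuclear speckles that is recurrently mutated in myeloid neoplasms. Its level was 143, 140.0 and 293 CPM in the 3 controls, 71.9, 79.2 and 81.2 CPM after scramble ectosomes and 125, 123 and 118 CPM after PKM2-knockdown ectosomes. The 3 groups did not overlap, and control replicate 3 was far above the other libraries. The gene fell 2.48-fold with scramble ectosomes (log2 change -1.31, SE 0.24, adjusted p = 0.000559), and without control replicate 3 it fell 1.83-fold (adjusted p = 3.00e-10, 3.00e-10 to 0.00412 over all alternatives run).

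SRSF10 encodes a splicing repressor that acts when dephosphorylated after heat shock. Its level was 183, 183 and 238 CPM in controls, 135, 122 and 131 CPM after scramble ectosomes and 175, 162 and 168 CPM after PKM2-knockdown ectosomes. All scramble libraries lay below all others. It fell 1.56-fold with scramble ectosomes (log2 change -0.64, SE 0.11, adjusted p = 0.00030).

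SRSF11, whose product interacts with the U2 auxiliary factor, had 254, 280.5 and 356 CPM in controls, 192, 189 and 193 CPM after scramble ectosomes and 236, 217 and 212 CPM after PKM2-knockdown ectosomes. Again the scramble libraries were the lowest and the controls the highest, with no overlap between groups. The gene fell 1.55-fold with scramble ectosomes (log2 change -0.63, SE 0.11, adjusted p = 0.000551).

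SRSF4 encodes one of the longer SR proteins and had 136, 141 and 143 CPM in controls, 116, 116 and 119 CPM after scramble ectosomes and 135, 131 and 129 CPM after PKM2-knockdown ectosomes. Its groups did not overlap although its fall with scramble ectosomes was small, 1.20-fold (log2 change -0.26, SE 0.06, adjusted p = 0.00434). With library totals the log2 change was -0.46.

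SRSF7, which also serves mRNA export, had 144, 142 and 214 CPM in controls, 115, 116 and 121 CPM after scramble ectosomes and 109.6, 105 and 116 CPM after PKM2-knockdown ectosomes. Both treated groups lay below all controls and overlapped each other. It fell 1.42-fold with scramble ectosomes (log2 change -0.51, SE 0.14, adjusted p = 0.00808), and without control replicate 3 the log2 change was -0.29.

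SRSF8 is a retrogene related to SRSF2 and had 22.7, 22.1 and 27.5 CPM in controls, 18.6, 17.8 and 19.6 CPM after scramble ectosomes and 16.1, 14.3 and 15.8 CPM after PKM2-knockdown ectosomes. The level stepped down across the groups with no overlap. With scramble ectosomes the gene fell 1.29-fold (log2 change -0.37, SE 0.11, adjusted p = 0.0119), a call lost without scramble replicate 2. With library totals the log2 change was -0.57.

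Of the other SR protein genes, SRSF1, the prototype of the family, fell 1.44-fold (adjusted p = 0.0154) and SRSF5 fell 1.35-fold (adjusted p = 0.0329). When control replicate 3 was left out, their log2 fold changes went from -0.52 to -0.26 and from -0.44 to -0.17. SRSF5's call was lost when any 1 scramble library or PKM2-knockdown replicate 2 was left out. SRSF9 was the SR gene that rose, from 158 ± 22.7 to 197 ± 7.26 CPM or 1.25-fold (adjusted p = 0.0198). That call was lost with library totals and without control replicate 2 or scramble replicate 2 or 3. SRSF6 and SRSF12 were not called.

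The hnRNP gene HNRNPLL encodes a regulator of CD45 exon skipping in lymphocytes. Its level was 30.5, 24.2 and 27.4 CPM in controls, 63.2, 60.0 and 61.7 CPM after scramble ectosomes and 30.3, 29.4 and 30.4 CPM after PKM2-knockdown ectosomes. All scramble libraries lay far above all others, and the control and knockdown groups overlapped. HNRNPLL rose 2.26-fold with scramble ectosomes (log2 change 1.17, SE 0.09, adjusted p = 9.08e-07), the smallest p among the 39 genes. In length-scaled level it went from 4.62 ± 0.530 to 10.4 ± 0.267 RPKM and was still among the lower hnRNP genes. It lies at chromosome 2, 38561978 to 38603586, minus strand (GRCh38), and the sequence before its RefSeq start is the first of those printed above.

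HNRNPU encodes a large nuclear matrix protein that binds chromatin and RNA. Its level was 1525, 1555 and 1795 CPM in controls, 862, 868 and 855 CPM after scramble ectosomes and 954, 919 and 857 CPM after PKM2-knockdown ectosomes. Both treated groups lay far below all controls. It fell 1.89-fold with scramble ectosomes (log2 change -0.92, SE 0.09, adjusted p = 3.81e-06) and lies at chromosome 1, 244840638 to 244864560, minus strand. COX20, on the opposite strand, shares 15.6% of its exon length and had 837 counts over the 9 libraries against 206069 for HNRNPU.

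HNRNPUL1, a paralogue of HNRNPU with roles in DNA damage signalling, had 555, 484 and 606 CPM in controls, 339, 350.1 and 341 CPM after scramble ectosomes and 389.9, 403 and 409 CPM after PKM2-knockdown ectosomes. The scramble libraries were lowest and the knockdown libraries lay between them and the controls, with no overlap. It fell 1.60-fold with scramble ectosomes (log2 change -0.67, SE 0.09, adjusted p = 5.18e-05). The related gene HNRNPUL2 fell 1.36-fold (adjusted p = 0.00629), from 60.0 ± 11.7 to 44.0 ± 1.86 CPM, a log2 change of -0.45 that was -0.28 without control replicate 3.

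HNRNPAB encodes a nucleic acid binder that shuttles between nucleus and cytoplasm. It had 244, 202 and 298 CPM in controls, 149.5, 148 and 155 CPM after scramble ectosomes and 153, 167 and 177 CPM after PKM2-knockdown ectosomes. Every treated library was below every control. The fall with scramble ectosomes was 1.64-fold (log2 change -0.72, SE 0.12, adjusted p = 0.000405).

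HNRNPR, which binds RNA in nucleus and axons, had 204, 192 and 247 CPM in controls, 154, 156 and 151 CPM after scramble ectosomes and 135, 131 and 146 CPM after PKM2-knockdown ectosomes. The groups did not overlap, with the knockdown libraries lowest. It fell 1.39-fold with scramble ectosomes (log2 change -0.48, SE 0.10, adjusted p = 0.00118).

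HNRNPD, known as AUF1, binds AU-rich elements that mark short-lived mRNAs. It had 515, 469 and 602 CPM in controls, 381, 388 and 409.6 CPM after scramble ectosomes and 363, 369.6 and 392 CPM after PKM2-knockdown ectosomes. Treated libraries lay below all controls and overlapped each other. The gene fell 1.35-fold with scramble ectosomes (log2 change -0.43, SE 0.10, adjusted p = 0.00222).

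HNRNPM, whose product can promote exon skipping, moved the other way, with 396, 370.4 and 331 CPM in controls, 455, 469 and 499 CPM after scramble ectosomes and 339, 365 and 373 CPM after PKM2-knockdown ectosomes. All scramble libraries were above all others. It rose 1.30-fold with scramble ectosomes (log2 change 0.38, SE 0.09, adjusted p = 0.00269), but with library totals it did not pass the test. HNRNPK also rose, 1.17-fold (adjusted p = 0.0303), a call lost with library totals, without a filter on low counts and without any 1 of control replicates 1 and 2 or the scramble libraries.

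The remaining falls among hnRNP genes were those of HNRNPH1, 1.97-fold (adjusted p = 0.00543), and HNRNPH3, 1.35-fold (adjusted p = 0.0240). HNRNPH1 was 1194 ± 581 CPM in controls, of which replicate 3 was highest, and 608 ± 20.1 CPM with scramble ectosomes. Without control replicate 3 it fell 1.42-fold (adjusted p = 2.46e-06, 2.46e-06 to 0.0223 over all alternatives run). HNRNPH3's log2 change went from -0.43 to -0.19 without control replicate 3, and its call was lost without any 1 scramble library. The 8 hnRNP genes that did not pass the test were HNRNPA0, HNRNPA1L2, HNRNPA3, HNRNPC, HNRNPDL, HNRNPF, HNRNPH2 and HNRNPL.

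**Figure D3:**
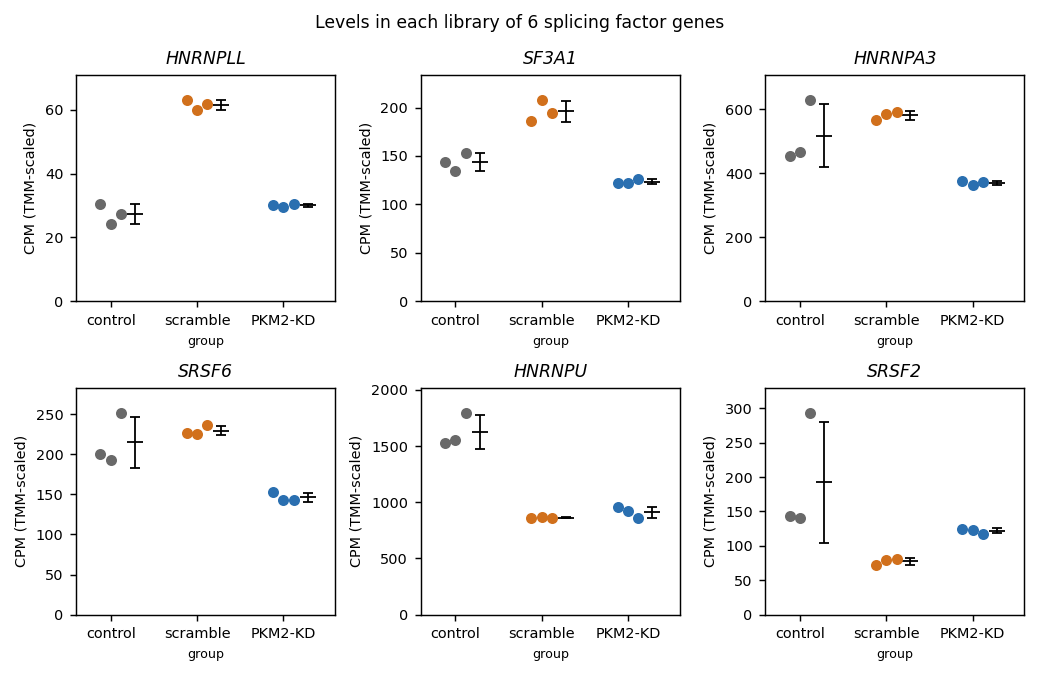
Levels in each library (TMM-scaled CPM, axes starting at 0) of HNRNPLL, SF3A1, HNRNPA3, SRSF6, HNRNPU and SRSF2, with mean ± SD of the 3 libraries of a group beside the points. HNRNPLL and SF3A1 are high in the scramble libraries, HNRNPA3 and SRSF6 are low in the knockdown libraries, HNRNPU is low in both treated groups, and SRSF2 is lowest in the scramble libraries with control replicate 3 far above.

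Of the SF3 genes, all 3 of the SF3A complex were called, in different directions. SF3A1, the largest SF3A subunit, had 144, 135 and 153 CPM in controls, 186, 208 and 195 CPM after scramble ectosomes and 122, 123 and 126 CPM after PKM2-knockdown ectosomes. The scramble libraries were highest and the knockdown libraries lowest, with no overlap between the 3 groups. SF3A1 rose 1.36-fold with scramble ectosomes (log2 change 0.45, SE 0.08, adjusted p = 0.000381), and with library totals the log2 change was 0.24. It lies at chromosome 22, 30331988 to 30356947, minus strand.

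SF3A2, which contacts the branch site region, had 126, 105 and 126 CPM in controls, 73.8, 83.2 and 77.6 CPM after scramble ectosomes and 72.3, 79.5 and 80.8 CPM after PKM2-knockdown ectosomes. Every treated library was below every control. It fell 1.52-fold with scramble ectosomes (log2 change -0.60, SE 0.09, adjusted p = 0.000155). The opposite-strand gene PLEKHJ1 shares 12.7% of its exon length and had 11160 counts against 16627 for SF3A2, and reads of the pair cannot be told apart without strand.

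SF3A3, the third subunit of the complex, had 144, 140.0 and 155 CPM in controls, 105, 109 and 109 CPM after scramble ectosomes and 93.7, 95.5 and 98.0 CPM after PKM2-knockdown ectosomes. The level was lower in each group in that order, with no overlap. It fell 1.36-fold with scramble ectosomes (log2 change -0.44, SE 0.07, adjusted p = 0.000192).

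In SF3B, the complex that clamps the branch site adenosine, SF3B3 had 179.8, 179.7 and 204 CPM in controls, 246, 265 and 246 CPM after scramble ectosomes and 191, 193 and 197 CPM after PKM2-knockdown ectosomes. Scramble libraries were above all others. SF3B3, a scaffold subunit, rose 1.34-fold with scramble ectosomes (log2 change 0.43, SE 0.08, adjusted p = 0.000567), and with library totals the log2 change was 0.22.

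SF3B2, which binds SF3B4, had 230.1, 223 and 236 CPM in controls, 265, 261 and 267 CPM after scramble ectosomes and 191, 191 and 205 CPM after PKM2-knockdown ectosomes. The groups did not overlap, scramble being highest and knockdown lowest. It rose 1.15-fold with scramble ectosomes (log2 change 0.20, SE 0.07, adjusted p = 0.0219), but with library totals its log2 fold change was -0.00 (adjusted p = 0.996, 0.00202 to 0.996 over all alternatives run), and the call was also lost without a filter on low counts and without control replicate 2 or scramble replicate 1 or 3.

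SF3B6, the small subunit that lies at the branch point, had 70.4, 71.4 and 99.5 CPM in controls, 63.5, 64.8 and 62.7 CPM after scramble ectosomes and 60.3, 60.9 and 65.3 CPM after PKM2-knockdown ectosomes. Both treated groups lay below the controls, of which replicate 3 was highest. It fell 1.26-fold (log2 change -0.34, SE 0.12, adjusted p = 0.0295), a call lost when any 1 scramble library was left out. The log2 change was -0.16 without control replicate 3 and -0.54 with library totals. SF3B1, the subunit most often mutated in myelodysplasia, was not called: it had 448 ± 92.6 CPM in controls and 398 ± 7.55 CPM with scramble ectosomes (log2 fold change -0.17, adjusted p = 0.254). SF3B4, which contacts RNA upstream of the branch site, and SF3B5 were not called either.

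**Figure D4:**
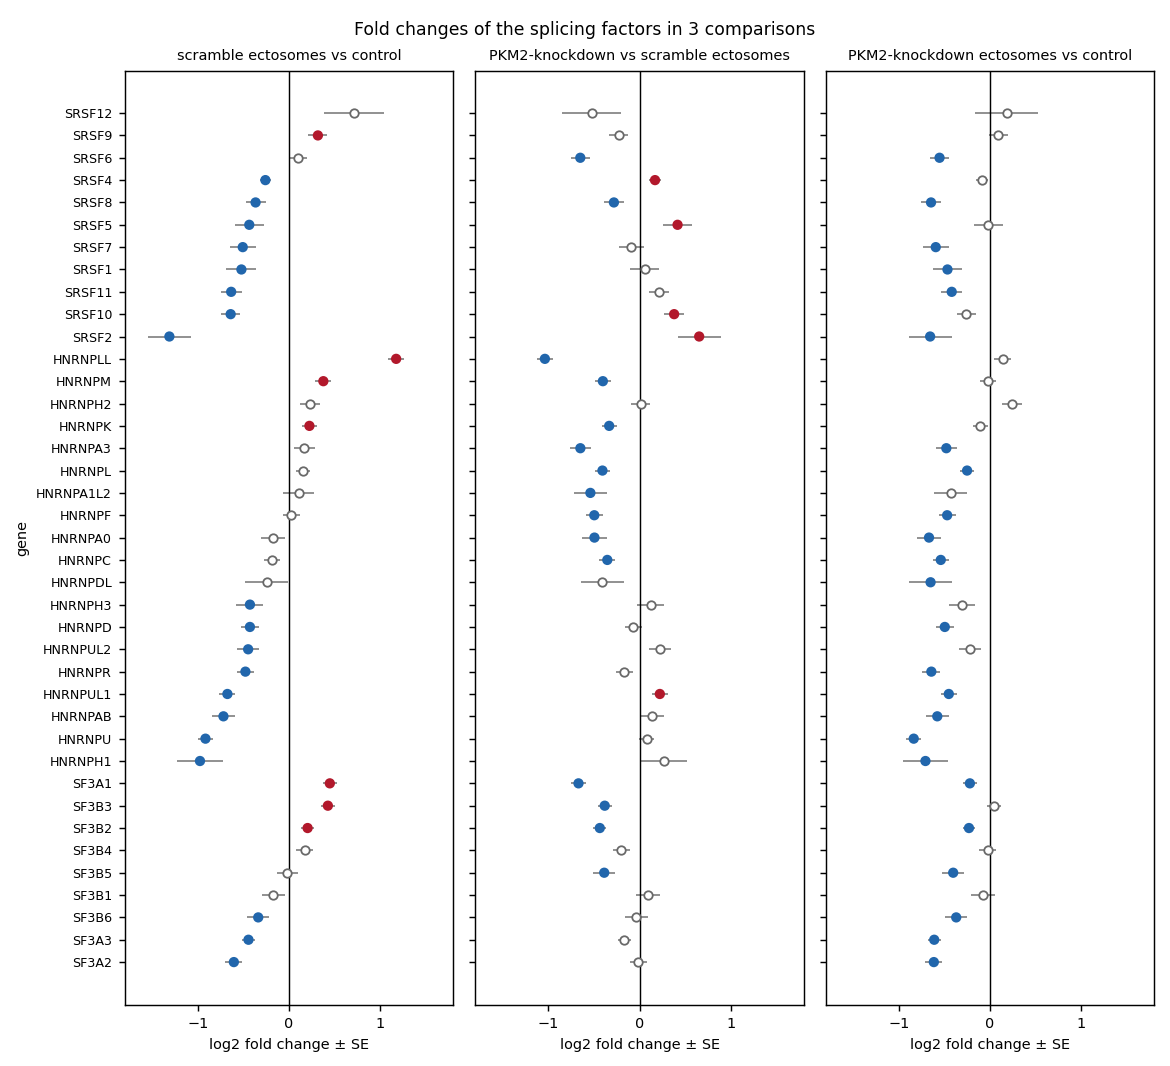
Log2 fold change ± SE of the 39 splicing factor genes (rows) in the 3 comparisons (panels). Filled red and blue points passed the edgeR test higher and lower, and open points did not; in the first panel 7 are red and 19 blue, in the second 5 and 15, and in the third 0 and 24.

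The second comparison set PKM2-knockdown against scramble ectosomes, which differ in the shRNA of the donor cells. Here 5 splicing factor genes rose, 15 fell and 19 did not pass the test, so 51.3% were called, against 61.6% of all rows tested. Of all rows 31.4% were called higher and 30.3% lower, and of rows with a mean of at least 50 CPM 25.2% and 45.2% (70.4% in all). The hnRNP genes were mostly lower (9 fell, 1 rose), SF3 genes that were called were all lower (4 fell, 0 rose), and SR genes went both ways (4 rose, 2 fell). The 1 change of at least 2-fold was in HNRNPLL, against 28.8% of all rows and 16.9% of those with a mean of at least 50 CPM.

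Groups did not overlap for 30 of the 39 genes (9 higher, 21 lower), which is 76.9%. This compares with 74.5% of all rows and 85.5% of those with a mean of at least 50 CPM. The median log2 fold change of the 39 genes was -0.17, against 0.03 over all rows. It was close to the -0.18 over rows with a mean of at least 50 CPM. With library totals alone 9 rose and 10 fell, against 38.2% and 23.5% of all rows, and the median of the 39 genes was 0.01. The median over all rows shifted by 0.17, so the balance of rises and falls depended on the scaling. Without control replicate 3, whose spread enters the fit, 8 rose and 20 fell, against 36.1% and 35.4% of all rows. Leaving out any 1 scramble or knockdown library left 1 that rose, SRSF10.

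Among hnRNP genes, HNRNPLL fell 2.05-fold to the levels given above, which overlapped the controls (log2 change -1.04, SE 0.09, adjusted p = 3.80e-06). HNRNPA3, a relative of HNRNPA1, had 454, 467 and 629.6 CPM in controls, 566, 585 and 592 CPM after scramble ectosomes and 377, 364 and 371 CPM after PKM2-knockdown ectosomes. All knockdown libraries were below all others. It fell 1.57-fold against scramble ectosomes (log2 change -0.65, SE 0.12, adjusted p = 0.000619). Its 10 pseudogene copies in the table held 1.37% as many counts.

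HNRNPF, which binds runs of guanine, had 303, 289 and 366 CPM in controls, 319.7, 322 and 333 CPM after scramble ectosomes and 223, 231 and 238 CPM after PKM2-knockdown ectosomes. The knockdown libraries were again the lowest, and the other groups overlapped. It fell 1.41-fold (log2 change -0.50, SE 0.09, adjusted p = 0.000879).

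HNRNPL, which binds CA repeats, had 227, 202 and 234 CPM in controls, 244, 243 and 250.4 CPM after scramble ectosomes and 179.7, 192 and 185 CPM after PKM2-knockdown ectosomes. The 3 groups did not overlap, with knockdown lowest and scramble highest. It fell 1.33-fold (log2 change -0.41, SE 0.08, adjusted p = 0.000989). HNRNPM fell 1.32-fold (log2 change -0.40, SE 0.09, adjusted p = 0.00212), to a level that overlapped the controls.

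The other hnRNP genes that fell were HNRNPK, HNRNPC, which binds runs of uridine, HNRNPA0, which binds AU-rich cytokine mRNAs, and HNRNPA1L2. HNRNPA0 went from 267 ± 5.58 to 189.7 ± 17.5 CPM or 1.41-fold lower (adjusted p = 0.00766), and HNRNPC from 670.1 ± 16.0 to 525 ± 12.7 CPM or 1.28-fold lower (adjusted p = 0.00449). HNRNPK was 1.26-fold lower (adjusted p = 0.00453). With library totals the calls of HNRNPC, HNRNPK and HNRNPA1L2 were lost, and the log2 changes of HNRNPA0, HNRNPF, HNRNPL and HNRNPM were smaller but still called (-0.32, -0.32, -0.23 and -0.23). HNRNPA1L2 also lost its call without scramble replicate 1 or 3 or knockdown replicate 2 or 3. HNRNPUL1 was the hnRNP gene that rose, 1.17-fold (adjusted p = 0.0471), a call lost under 10 of the 15 alternatives run. HNRNPU was not called (log2 change 0.08, SE 0.08, adjusted p = 0.439). HNRNPAB, HNRNPD, HNRNPDL, HNRNPH1, HNRNPH2, HNRNPH3, HNRNPR and HNRNPUL2 were not called either.

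Of the SF3 genes, SF3A1 fell 1.59-fold (log2 change -0.67, SE 0.08, adjusted p = 2.90e-05), SF3B2 fell 1.35-fold (log2 change -0.44, SE 0.07, adjusted p = 0.000277) and SF3B3 fell 1.30-fold (log2 change -0.38, SE 0.08, adjusted p = 0.00145). With library totals the log2 changes of SF3B2 and SF3B3 were -0.26 and -0.21. These are the 3 SF3 genes that had risen with scramble ectosomes, and the 2 comparisons share the scramble libraries. SF3B5 had 62.9, 55.4 and 78.1 CPM in controls, 63.1, 64.4 and 66.3 CPM after scramble ectosomes and 46.0, 47.8 and 54.5 CPM after PKM2-knockdown ectosomes. Its knockdown libraries were below all others, and it fell 1.31-fold (log2 change -0.39, SE 0.12, adjusted p = 0.0156), a call lost with library totals and without knockdown replicate 1 or 2. SF3A3 was not called (log2 change -0.17, SE 0.07, adjusted p = 0.0554), although its groups did not overlap. SF3A2, SF3B1, SF3B4 and SF3B6 were not called either, and no SF3 gene was higher at an unadjusted p under 0.05 (0 of 9), nor by DESeq2 or limma-voom.

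Among SR protein genes, SRSF6, which encodes a classical binder of exonic enhancers, had 201, 193 and 252 CPM in controls, 227, 226 and 237 CPM after scramble ectosomes and 153, 143 and 143 CPM after PKM2-knockdown ectosomes. The knockdown libraries were below all others, while scramble and control libraries overlapped. It fell 1.57-fold (log2 change -0.65, SE 0.10, adjusted p = 0.000244). SRSF8 also fell, 1.21-fold (adjusted p = 0.0465), but lost the call with library totals, without a filter on low counts and without any 1 scramble or knockdown library. SRSF1, SRSF7, SRSF9, SRSF11 and SRSF12 were not called.

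The SR genes that rose were SRSF10, SRSF2, SRSF5 and SRSF4. SRSF10 rose 1.30-fold (log2 change 0.38, SE 0.11, adjusted p = 0.00957), to a level below all controls. SRSF5, whose transcript responds to insulin, had 269.7, 274 and 439.6 CPM in controls, 237, 238 and 252 CPM after scramble ectosomes and 335, 321 and 314 CPM after PKM2-knockdown ectosomes. Its knockdown libraries lay above control replicates 1 and 2 and below control replicate 3, and it rose 1.33-fold (log2 change 0.42, SE 0.16, adjusted p = 0.0430). SRSF2 rose 1.57-fold (log2 change 0.65, SE 0.24, adjusted p = 0.0323) and SRSF4 rose 1.12-fold (log2 change 0.17, SE 0.06, adjusted p = 0.040). The calls of SRSF2, SRSF4 and SRSF5 were lost without any 1 scramble or knockdown library, so SR genes called went from 6 to 2 in those fits. SRSF4's call was also lost with RLE size factors, without a filter on low counts and with the replicate number as a block. Over all alternatives the adjusted p ran from 6.79e-09 to 0.10 for SRSF2, from 0.000979 to 0.127 for SRSF4 and from 6.57e-07 to 0.113 for SRSF5.

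The third comparison set PKM2-knockdown ectosomes against control cells. Every call among the splicing factors was a fall: 24 fell, 0 rose and 15 did not pass the edgeR test, with 1 higher at an unadjusted p under 0.05 (HNRNPH2). DESeq2 and limma-voom also called 0 higher. The 61.5% called compares with 53.7% of all rows tested, of which 27% were higher and 26.7% lower, and among rows with a mean of at least 50 CPM 32.2% were higher and 35.1% lower (67.3% in all). The falls were in 12 hnRNP, 6 SR and 6 SF3 genes, none of them 2-fold or more, against 21.8% of all rows and 15.9% of those with a mean of at least 50 CPM. The groups did not overlap for 27 of the 39 genes, all lower, which is 69.2%. In either direction this was 60.5% of all rows and 72.1% of those with a mean of at least 50 CPM. The median log2 fold change of the 39 genes was -0.42, against -0.01 over all rows and -0.02 over those with a mean of at least 50 CPM.

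Without control replicate 3, 24 fell and 2 rose, against 28.6% and 29.1% of all rows in that fit, and the median was -0.21. The 2 that rose were HNRNPH2, a paralogue of HNRNPH1 (log2 fold change 0.38, adjusted p = 4.20e-05, 4.20e-05 to 0.249 over all alternatives run), and SRSF5 (0.25, adjusted p = 0.00110, 0.00110 to 0.998 over all alternatives run). With all libraries the values were 0.24 (adjusted p = 0.0795) and -0.02 (adjusted p = 0.934). Leaving out knockdown replicate 1 left 15 that fell, and leaving out knockdown replicate 1 or 2 left 2 of the 6 SF3 genes called.

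By size, HNRNPU fell 1.79-fold (log2 change -0.84, SE 0.09, adjusted p = 1.68e-05), the largest fall with knockdown ectosomes among the 39 genes. HNRNPH1 fell 1.63-fold (adjusted p = 0.0345), without control replicate 3 1.18-fold (adjusted p = 0.00650, 0.00614 to 0.108 over all alternatives run). HNRNPA0 fell 1.59-fold (log2 change -0.67, SE 0.13, adjusted p = 0.00155). SRSF2 fell 1.58-fold (adjusted p = 0.0352), without control replicate 3 1.17-fold, and SRSF8 fell 1.57-fold (log2 change -0.65, SE 0.11, adjusted p = 0.000580). HNRNPR fell 1.56-fold (log2 change -0.64, SE 0.10, adjusted p = 0.000253), and SF3A2 and SF3A3 each fell 1.53-fold (adjusted p = 0.000231 and 3.58e-05). The other falls were those of SRSF1, SRSF6, SRSF7 and SRSF11, of HNRNPA3, HNRNPAB, HNRNPC, HNRNPD, HNRNPDL, HNRNPF, HNRNPL and HNRNPUL1, and of SF3A1, SF3B2, SF3B5 and SF3B6, with log2 fold changes between -0.65 for HNRNPDL and -0.22 for SF3A1. When control replicate 3 was left out, HNRNPDL's log2 change was -0.20, SRSF1's -0.21, SRSF7's -0.38, SRSF11's -0.27, HNRNPA3's -0.32, SF3B5's -0.26 and SF3B6's -0.19, against -0.47, -0.60, -0.42, -0.48, -0.40 and -0.37 for the last 6 with all libraries. SRSF1's call was lost without any 1 knockdown library, HNRNPL's without knockdown replicate 1, and those of SF3B2, SF3B5 and SF3B6 without knockdown replicate 1 or 2.

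HNRNPDL, HNRNPH1 and SRSF2, the 3 genes highest in control replicate 3 relative to the other controls, lost their calls in this comparison under limma-voom, for HNRNPDL and HNRNPH1 with a replicate block, and without any 1 scramble or knockdown library. Over all alternatives the adjusted p ran from 0.00685 to 0.105 for HNRNPDL and from 0.00582 to 0.0966 for SRSF2. HNRNPLL, SF3B3 and HNRNPM, which had risen with scramble ectosomes, were not called against control (log2 fold changes 0.14, 0.04 and -0.03). SF3A1 was lower than control (-0.22, adjusted p = 0.0317), with adjusted p from 0.00811 to 0.113 over the alternatives run, and the call was lost with a replicate block and without control replicate 1, scramble replicate 3 or any 1 knockdown library. SF3B1, SF3B4, HNRNPH2 and SRSF12 were called in none of the 3 comparisons.

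Calls that held under all 15 alternatives run numbered 18 of 26 with scramble ectosomes against control, 11 of 20 for knockdown against scramble ectosomes and 15 of 24 for knockdown ectosomes against control. In the first, 3 were higher (HNRNPLL, SF3A1 and SF3B3) and 15 lower. In the second, SRSF10 was higher, and HNRNPLL, SF3A1, SF3B2, SF3B3, SRSF6 and 5 further hnRNP genes were lower. In the third all 15 were lower.

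Several features that the choice of genes did not use were counted. GENCODE release 29 lists a transcript marked for nonsense-mediated decay for 25 of the 39 genes (64.1%), against 41.8% of the 13660 protein-coding genes tested. All 11 SR genes have one, against 11 of 19 hnRNP genes and 3 of 9 SF3 genes. A retained-intron transcript is listed for 26 (66.7%), against 56.4%. The 39 genes also have more annotated transcripts, a median of 10 against 7, and these shares were not adjusted for that. The counts are per gene, so the productive and decay-marked transcripts of a gene such as SRSF2 or SRSF7 were not separated here.

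Of the 39 genes 37 have a RefSeq promoter entry, SRSF2 and SF3B3 being the exceptions. In the 250 bases before the start, on both strands, a GC box (GGGCGG) was found in 26 (70.3%), against 64.9% of 11330 promoters of genes tested and 42.3% of all 27305. The CCAAT box was found in 14 (37.8%, against 34.5% and 33.0%). The ETS motif CCGGAAG was found in 11 (29.7%, against 15.1% and 8.82%), 6 of them SF3 genes (SF3A1, SF3A2, SF3A3, SF3B2, SF3B4 and SF3B6). The E-box CACGTG was found in 7 (18.9%, against 8.69% and 6.49%), TATAAA in 4 (10.8%, against 5.67% and 11.1%), TGACGT in 4 (10.8%, against 9.93% and 7.42%) and the NRF1 palindrome in 0 (against 1.85% and 1.13%). None of these motifs contains another. The median ratio of observed to expected CpG was 0.933, against 0.806 for promoters of genes tested.

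The sources used here do not say whether counting used strand, so overlapping genes bear on some values. The largest overlap was on the same strand, where strand does not separate reads: AC015813.2 shares 56.6% of the exon length of SRSF1 (0 counts against 12562). HNRNPUL2-BSCL2, also on the same strand, shares 44.1% of that of HNRNPUL2 (12 against 9422). Besides the pairs given above, MFSD11 on the opposite strand shares 36.7% of the exon length of SRSF2 and had 3910 counts against 23452. GATC shares 46.2% of that of SRSF9 (2808 against 31784 counts), and PHYKPL 9.14% of that of HNRNPAB (15366 against 34094). TGFB1 shares 3.29% of that of HNRNPUL1 (43176 against 78265). Pseudogene copies held 3.65% as many counts as HNRNPC, 1.19% as many as HNRNPL and 0.774% as many as HNRNPK.

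The rest of the splicing machinery was described by 11 lists with 169 genes tested of 172. With scramble ectosomes against control 50 rose and 58 fell, and with knockdown against scramble ectosomes 20 rose and 74 fell. With knockdown ectosomes against control 15 rose and 84 fell. Of all rows tested 34.6% rose and 33.2% fell, then 31.4% and 30.3%, then 27% and 26.7%. Of rows with a mean of at least 50 CPM these were 47.5% and 29.3%, 25.2% and 45.2%, and 32.2% and 35.1%. With library totals the first 2 comparisons gave 32 and 91, and 42 and 47, of these list genes. The shares of all rows were then 27.8% and 41.4%, and 38.2% and 23.5%. Without control replicate 3 the rises in the lists were 66, 34 and 31, against 36.9%, 36.1% and 29.1% of all rows. Leaving out scramble replicate 2 gave 13 rises in the second comparison. Median log2 fold changes of the list genes with all libraries were -0.10, -0.22 and -0.28. Over all rows tested they were -0.01, 0.03 and -0.01, and over rows with a mean of at least 50 CPM 0.19, -0.18 and -0.02.

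Of 8 U1 particle genes, which read the 5′ splice site, 4 fell and 0 rose with scramble ectosomes, 1 fell and 2 rose with knockdown against scramble, and 3 fell and 0 rose with knockdown against control. In the second comparison 5 fell and 3 rose without control replicate 3, and 2 fell and 1 rose without knockdown replicate 3. In the third 6 fell without control replicate 1. SNRNP70, the U1 protein that SR proteins contact, went from 379.6 ± 23.5 to 254 ± 9.64 CPM and was at 381 ± 18.6 CPM with knockdown ectosomes (adjusted p = 6.70e-05 and 8.73e-05 in the first 2 comparisons). Of 14 U2 partners, 6 fell and 2 rose, then 6 fell and 1 rose, then 10 fell and 0 rose. The first 2 with library totals were 11 fell and 1 rose, and 4 fell and 4 rose, and without knockdown replicate 2 the third was 5 fell and 0 rose. PHF5A, the SF3B subunit outside the naming rule, was at 42.9 ± 7.09, 43.9 ± 0.602 and 23.3 ± 2.31 CPM and fell 1.88-fold with knockdown against scramble ectosomes (adjusted p = 7.18e-05). DDX42, an SF3B-associated helicase, fell 1.68-fold with scramble ectosomes (adjusted p = 4.43e-05).

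Of 14 Sm and LSm ring genes, 10 fell and 2 rose with scramble ectosomes, 7 fell and 2 rose with knockdown against scramble, and 11 fell and 0 rose against control. Rises in the second comparison were 4 with library totals and 4 without control replicate 3. LSM8, of the ring on U6 RNA, was one that rose with scramble ectosomes, 1.79-fold (adjusted p = 1.03e-05), while SNRPD3, of the Sm ring, fell 1.57-fold (adjusted p = 5.27e-05). Of 18 tri-snRNP genes 5 rose and 5 fell, then 0 rose and 8 fell, then 1 rose and 10 fell. The first 2 became, with library totals, 2 rose and 12 fell, and 3 rose and 4 fell. In the first, 3 rose without control replicate 1 or 2 or scramble replicate 3. Scramble replicate 1 left out gave 4 rises and 3 falls there. In the second, 4 fell without scramble replicate 3 and 5 without knockdown replicate 1, and in the third 3 rose without control replicate 3. Of 25 genes of the PRPF19 complex and step factors 10 rose and 5 fell, then 0 rose and 12 fell, then 2 rose and 12 fell. Scaling to library totals gave 8 rose and 10 fell, and then 3 rose and 11 fell, in the first 2 comparisons, and without control replicate 3 the third was 5 rose and 11 fell. CWC22, which links the spliceosome to the exon junction complex, was at 45.3 ± 2.87, 85.2 ± 1.98 and 43.7 ± 2.64 CPM. It rose 1.88-fold and then fell 1.95-fold (adjusted p = 1.88e-06 and 2.25e-06).

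Kinases of SR proteins were examined with the import receptor TNPO3. Of these 9 genes 4 rose and 2 fell with scramble ectosomes, 2 rose and 4 fell with knockdown against scramble, and 2 rose and 3 fell against control. The balance turned with library totals in the first 2 comparisons (1 rose and 4 fell, then 5 rose and 3 fell). It also turned without control replicate 3 in the second (5 rose and 4 fell) and without any 1 knockdown library in the third (2 rose and 0 or 1 fell). CLK2, a nuclear kinase of the SR tail, had 124, 127 and 153 CPM in controls, 63.7, 62.9 and 68.3 CPM after scramble ectosomes and 172, 179 and 184 CPM after PKM2-knockdown ectosomes. The groups did not overlap, with scramble lowest and knockdown highest. CLK2 fell 2.07-fold with scramble ectosomes (log2 change -1.05, SE 0.09, adjusted p = 2.40e-06) and rose 2.75-fold with knockdown against scramble ectosomes (log2 change 1.46, SE 0.09, adjusted p = 4.71e-07). SRPK2, a cytoplasmic SR kinase, went the other way, 1.31-fold higher and then 1.46-fold lower (adjusted p = 0.00433 and 0.000589).

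Of 20 SR-related genes 4 rose and 7 fell, then 5 rose and 7 fell, then 1 rose and 6 fell. Leaving out control replicate 3 made the first and the third 8 rose and 6 fell, and 6 rose and 6 fell. In the second, 7 rose and 2 fell with library totals, and 2 to 5 rose and 2 to 5 fell when any 1 scramble or knockdown library was left out, with more rises (5) than falls (2) without knockdown replicate 3. In the third, 10 fell without control replicate 1 and 2 without knockdown replicate 2 or 3. TRA2B, a splicing activator with arginine-serine tails, was at 293 ± 38.0, 171 ± 5.39 and 236 ± 8.42 CPM, falling 1.71-fold with scramble ectosomes (adjusted p = 3.11e-05). Of 21 other hnRNP-like genes 6 rose and 6 fell, then 1 rose and 12 fell, then 2 rose and 12 fell. Scaling to library totals gave 5 rose and 10 fell, and then 1 rose and 6 fell, in the first 2 comparisons, and without scramble replicate 1 or 2 the first had 3 falls. CIRBP, a cold-inducible RNA binder, fell 2.13-fold with scramble ectosomes (adjusted p = 5.30e-07), and SFPQ, a paraspeckle protein, rose 1.62-fold (adjusted p = 0.000429).

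Of 13 tested genes of other alternative splicing regulators 5 rose and 6 fell, then 4 rose and 4 fell, then 0 rose and 5 fell. With library totals these were 1 rose and 7 fell, 7 rose and 3 fell, and 0 rose and 8 fell, and without control replicate 3 the second was 8 rose and 5 fell. ESRP1, an epithelial splicing regulator, had 7.30, 8.27 and 2.21 CPM in controls, 47.5, 47.2 and 42.0 CPM after scramble ectosomes and 1.47, 0.656 and 1.21 CPM after PKM2-knockdown ectosomes. It was high in the scramble libraries, while the epithelial markers given above were highest with knockdown ectosomes. ESRP1 rose 7.60-fold with scramble ectosomes (adjusted p = 2.36e-05) and fell 41.0-fold with knockdown against scramble (adjusted p = 1.94e-06). CELF2, which is high in leukocytes and brain, was at 215 ± 6.35, 88.6 ± 3.82 and 175 ± 9.05 CPM, and fell 2.42-fold with scramble ectosomes (adjusted p = 1.11e-07).

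Of 12 minor spliceosome genes 6 rose and 4 fell, then 3 rose and 4 fell, then 4 rose and 3 fell. Library totals gave 4 rose and 5 fell, and then 4 rose and 1 fell, in the first 2 comparisons. In the second, 3 rose and 2 fell without a filter on low counts, 5 rose without control replicate 3, and 2 rose and 2 fell without scramble replicate 1 or knockdown replicate 2 or 3. Of 15 genes of the exon junction complex and nonsense-mediated decay, which acts on poison-exon transcripts, 6 rose and 3 fell with scramble ectosomes, 0 rose and 9 fell with knockdown against scramble, and 3 rose and 9 fell against control. In the first, 5 rose and 5 fell with library totals and 1 fell without scramble replicate 1. Where a list is given with 0 rises, 0 rises were also found in that list and comparison at an unadjusted p under 0.05 and by DESeq2 and limma-voom. Without control replicate 3, 1 gene rose among the U1 genes in the first comparison and 1 among the exon junction and decay genes in the second. In the third, 1 rose among the U2 partners and 1 among the other alternative splicing regulators. The exon junction and decay list also had 1 rise in the second comparison with library totals.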

How the data were processed

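RNA of 9 THP-1 libraries in 3 groups of 3 was extracted with Trizol and sequenced on an Illumina HiSeq from NEBNext Ultra libraries, per the labels' protocols. The authors deposited 1 table of 30000 rows that holds the raw read counts of each gene symbol in these libraries, not normalized. HISAT2 2.0.5, featureCounts 1.5.0-p3 and GRCh38/hg38 were used per the submitters' processing notes. The sources used here name neither the annotation release nor the strand setting.

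Rows with low counts were removed with filterByExpr by group, leaving 18437 rows. Counts were scaled by TMM and fitted in edgeR 4.0.16 (R 4.3.3) with group as the only term, all 9 libraries in 1 quasi-likelihood model with 6 residual degrees of freedom. All tests were two-sided. A gene was called where its p, adjusted by Benjamini-Hochberg over all rows, was under 0.05, and adjusted p-values come from edgeR unless another tool is named. Both ectosome groups were compared with the same controls, so these comparisons share libraries, and each also shares a group with the comparison of the 2 kinds of ectosomes. SEs were approximated as the size of the log2 fold change over the root of F. The fits were tested on simulated data. Repeated symbols (355 rows) were kept as rows. Levels per length used GENCODE release 29 and promoters RefSeq GRCh38.p14, read from tables; protein sequences were not used here.

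The genes and the other lists were chosen with earlier results of these data known. All 39 genes are accounted for. Values in every library are given for the 6 genes of each family with the smallest p in scramble ectosomes against control and the 5 with the smallest p in PKM2-knockdown against scramble ectosomes. Of each other list, up to 3 and 2 genes by the same ranks may be named. Calls of other genes that processing or 1 library ended were named after their values were seen. Alternatives were RLE size factors, library totals alone, no filter on low counts, DESeq2 1.42.0, limma-voom (limma 3.58.1), a replicate block and leaving out each library.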

Additional observations from a re-analysis of the deposited data

How the results depend on the processing

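Of 1755 results for single splicing factors under 15 alternatives, 1564 kept direction and side of the threshold, 34 were uncalled throughout with another sign, 115 lost the call, 39 gained one and 3 changed sign: HNRNPDL in scramble ectosomes against control without control replicate 3 (log2 fold change 0.21, with a range of -0.45 to 0.21 when 1 library was left out), SF3B2 there with library totals (-0.00044) and SRSF5 in knockdown ectosomes against control without control replicate 3 (0.25, with a range of -0.14 to 0.25). With scramble ectosomes against control, library totals gave 3 splicing factors higher instead of 7, and in the other lists 32 higher and 91 lower; leaving out 1 library gave 4 to 15 splicing factors higher. For knockdown against scramble ectosomes, splicing factors higher numbered 3 with RLE size factors, 9 with library totals and 1 to 8 when 1 library was left out, and the median of their log2 fold changes became 0.0058 with library totals. SR genes called there ranged from 2 to 8 when 1 library was left out; other lists had 42 higher and 47 lower with library totals, and 13 to 34 higher when 1 library was left out. For knockdown ectosomes against control, leaving out 1 library gave 0 to 2 splicing factors higher, 15 to 27 lower, 2 to 6 SF3 genes called and 12 to 31 genes of other lists higher. The causes were not tested, except that library totals shift all rows together (by -0.20, 0.17 and -0.03 in the 3 comparisons). With replicate number as a block, splicing factors higher and lower were 7 and 19, 3 and 15, and 0 and 21. Deviations from the group mean correlated across genes at -0.13 to 0.09 for same-numbered libraries and -0.10 to 0.08 for different numbers. Means of 3 libraries, with control replicate 3 apart, cannot decide whether the numbers pair the libraries. SRSF12, at about 1 CPM, and HNRNPA1L2 had the fewest counts, which limits their precision.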
